A study of Bos taurus with 6 samples.

Results

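The 64 genes described here encode proteins of the mitochondrial ribosome. They are all genes whose symbol starts with MRPL or MRPS followed by a digit, among features of a bovine cDNA array that the platform annotation assigns to a single gene. They comprise 41 genes named for the large subunit (MRPL, 58 features) and 23 named for the small subunit (MRPS, 31 features), out of 8397 genes with a single symbol and 19200 features in all. RefSeq lists 78 protein-coding bovine genes with such symbols in assembly ARS-UCD2.0, and the other 14 are not analysed here. Membership was set by symbol alone, but the group was chosen with earlier results of these data known.

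The array is a glass slide of spotted cDNAs read in a pair of dyes, and it was tested by hybridising a tissue against itself. Total RNA of bovine adrenal tissue was set against adrenal RNA, or RNA of bovine lymph tissue against lymph RNA, with 3 arrays listed per tissue. Breed, sex, age, the kind of lymph tissue and the animals behind each array are unstated in the sources used here. The arrays may therefore be technical repeats, and p-values measure the spread between arrays only. Adrenal array 2 and lymph array 3 held the same values in all 19200 rows. That column was counted once as the shared array, of unknown tissue, which left adrenal 1 and 3, lymph 1 and 2 and the shared array, 5 distinct arrays in all.

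The mitochondrial ribosome makes the few proteins encoded by mitochondrial DNA, which are core subunits of the respiratory chain and of ATP synthase. Its RNA comes from mitochondrial DNA, whereas its proteins are encoded in the nucleus, made in the cytosol and imported. The large subunit joins amino acids and the small subunit reads the messenger RNA. Many of the proteins descend from bacterial ribosomal proteins, and others are found only in mitochondria. In the adrenal cortex, mitochondria also house steps of steroid hormone synthesis.

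A value here is the deposited log ratio of both channels minus the median of its array, averaged over the features of a gene. The sources used here name neither the base of the logarithm nor the dye of the numerator. Values are therefore in the log units of the deposit, no fold is given, and a sign does not tell which channel was brighter. Comparing signs between arrays takes the dye orientation to be the same on each, which is not stated. A log ratio of a tissue against itself carries no level of expression. The labelled tissues could therefore not be checked against their markers. Over the 5 arrays, genes that mark the adrenal gland (11 measured) had a median of 0.0099, and genes that mark lymphocytes (16 measured) had a median of 0.035, against 0.0049 for all 8318 genes tested.

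Most values of the mitochondrial ribosomal protein genes lay close to 0. Of their 320 values, 87.2% were within 0.2 of 0, as were 87.5% of the values of all genes. Only 2 lay beyond 0.5, namely MRPL10 on lymph 1 at 0.54 and MRPL37 on the shared array at -0.98. Above 0 were 33 of the 64 genes on adrenal 1 and 39 on adrenal 3. The lymph arrays had 37 and 36 genes above 0, and the shared array 39. All 64 genes had the values required for testing, at least 2 per tissue.

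**Figure D1:**
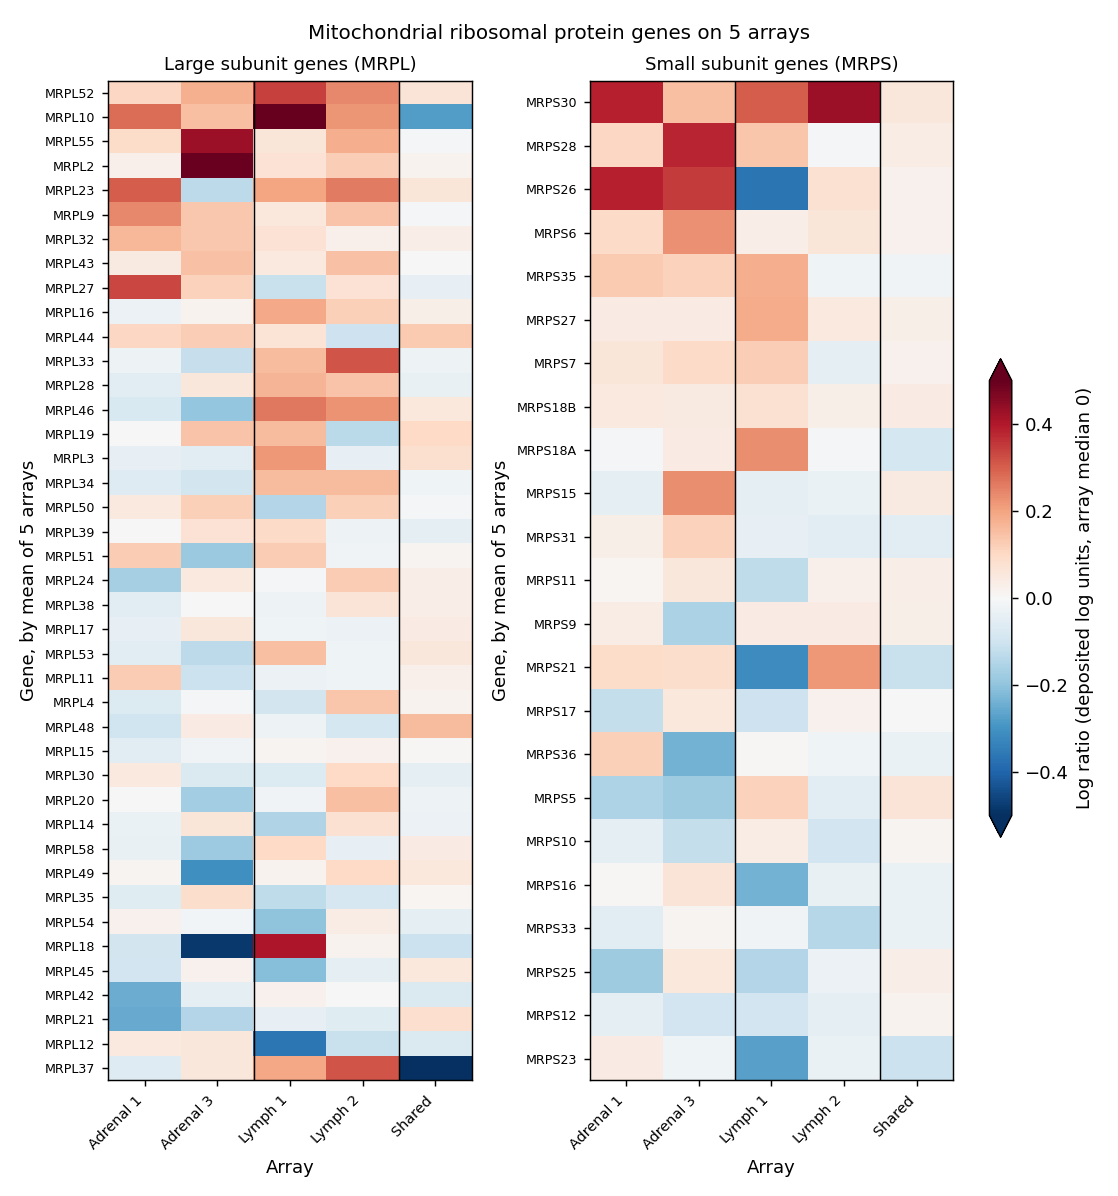
Log ratios of 41 large subunit genes and 23 small subunit genes (rows, ordered by their mean over 5 arrays) on the 5 distinct arrays (columns), in deposited log units with each array's median at 0. Colour runs from -0.5 to 0.5, and values beyond take the end colours. MRPS30 and MRPL52 are above 0 in every column, and MRPL37 is dark blue on the shared array at -0.98.

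In adrenal against adrenal, the smallest p among the 64 genes was that of MRPS26, a small subunit protein found only in mitochondria. It stood at 0.39 on adrenal 1 and 0.35 on adrenal 3, with a mean of 0.37 ± 0.11 (limma SE, n = 2; unadjusted p = 0.00976, adjusted p = 0.581). MRPS30, a protein with a small subunit name that sits in the large subunit, followed at 0.39 and 0.15. The limma SE draws on both tissues and all genes, and is thus not the spread of the adrenal pair alone. MRPL55 at 0.092 and 0.43 and MRPS28, which has a bacterial counterpart, at 0.11 and 0.38 lay mainly above 0 on adrenal 3. MRPL27, a protein near the site of peptide bond formation, lay mainly above 0 on adrenal 1, at 0.33 against 0.11.

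Below 0 in adrenal stood MRPL21, at -0.25 on adrenal 1 and -0.15 on adrenal 3. MRPL18, at -0.091 and -0.48, and MRPL42, at -0.25 and -0.048, differed between the arrays by more than the size of their smaller value. MRPS5, counterpart of a bacterial protein of the small subunit, was more alike at -0.15 and -0.18. These 4 genes had the smallest p below 0, and for MRPL18, MRPL42 and MRPS5 the unadjusted limma p was above 0.05, at 0.0503, 0.0950 and 0.0599.

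With limma and Benjamini-Hochberg adjustment over all 8318 genes, 0 of the 64 genes differed from 0 in adrenal (0.0% of all genes). At an unadjusted p under 0.05, 7 were above 0 and 1 below, or 12.5% in all. Among all genes 5.49% were above and 1.86% below, or 7.36% in all. The count of 8 was 4 with the shared array placed in adrenal and 11 with it in lymph. The share of all genes in those fits is not given, so a shift of the whole fit cannot be told from one of these genes. Without adrenal 1 or adrenal 3, a lone adrenal array takes its spread from the lymph pair, and counts of such fits are left out.

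In lymph against lymph, MRPS30 had the smallest p, at 0.30 on lymph 1 and 0.43 on lymph 2, with a mean of 0.37 ± 0.084 (limma SE, n = 2; unadjusted p = 0.00304, adjusted p = 0.601). MRPL10, the stalk protein of the large subunit that holds MRPL12, stood at 0.54 and 0.22. MRPL52, a large subunit protein found only in mitochondria, stood at 0.34 and 0.24. MRPL46, another of this kind, was close on both arrays at 0.26 and 0.22.

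Below 0 in lymph were MRPL12, the stalk protein that contacts translation factors in the bacterial ribosome, at -0.36 on lymph 1 and -0.11 on lymph 2, and MRPS23 at -0.27 and -0.034. MRPS16, which has a bacterial counterpart, stood at -0.24 and -0.039, and MRPL45, a protein at the exit tunnel that holds the ribosome to the inner membrane, at -0.21 and -0.048. All 4 were further below 0 on lymph 1 than on lymph 2. Of these, MRPL12 had an unadjusted limma p under 0.05, at 0.0232.

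In lymph 0 of the 64 genes passed with limma after adjustment (0.0% of all genes). At an unadjusted p under 0.05, 6 were above 0 and 1 below, or 10.9%, where all genes gave 5.51% above, 2.51% below and 8.02% in all. The count of 7 was 4 with the shared array placed in lymph and 10 with it in adrenal, again without a share of all genes for those fits. Counts without lymph 1 or lymph 2 are left out, since a lone lymph array takes its spread from the adrenal pair.

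The difference between the tissues compares departures from 0 on arrays labelled adrenal and lymph. With 2 arrays per tissue, an effect of the RNA cannot be told apart from differences between single hybridisations. MRPL46 had the smallest p among the 64 genes, at -0.075 and -0.19 in adrenal RNA, then 0.26 and 0.22 in lymph RNA. The adrenal and lymph values did not overlap, and lymph minus adrenal was 0.38 ± 0.10 (limma SE, n = 2 per tissue; unadjusted p = 0.00694, adjusted p = 0.941). MRPL18 had the largest difference above 0, at 0.50 ± 0.17 (limma SE), from -0.091 and -0.48 in adrenal to 0.40 and 0.018 in lymph. MRPL33 and MRPL34, small proteins with bacterial counterparts in the large subunit, also lay below 0 on both adrenal arrays and above 0 on both lymph arrays. MRPL33 stood at -0.024 and -0.12 against 0.16 and 0.32, and MRPL34 at -0.065 and -0.093 against 0.16 and 0.16.

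MRPL37, a large subunit protein found only in mitochondria, had an unadjusted limma p of 0.0437 for the difference of 0.26. Its direction depended on the place of the shared array, where MRPL37 stood at -0.98. With that array in lymph the difference became -0.15, and with it in adrenal 0.58.

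In the opposite direction stood MRPS26, at 0.39 and 0.35 in adrenal RNA but -0.37 and 0.077 in lymph RNA. Lymph minus adrenal was -0.51 ± 0.15 (limma SE, n = 2 per tissue; unadjusted p = 0.0106, adjusted p = 0.941). This value rests on a pair of features that did not move together. Feature number 2591 stood at 0.59 and 0.37 in adrenal and at -0.37 and -0.18 in lymph. Feature number 11114 stood at 0.19 and 0.32 in adrenal, had no value on lymph 1, and stood at 0.34 on lymph 2. Among features with a value on every array, which leaves number 2591 alone, the difference was -0.75, and without lymph 1 it was -0.29. MRPL12 differed by -0.29, with 0.050 and 0.057 in adrenal, and the next smallest p below 0 were those of MRPL27 at -0.24, with adrenal values of 0.33 and 0.11 against -0.11 and 0.073, and MRPS16 at -0.175.

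After adjustment over all genes, 0 of the 64 genes passed with limma in the difference (0.0% of all genes). At an unadjusted p under 0.05 there were 5 above 0 and 2 below, or 10.9%, where all genes gave 2.46%, 2.36% and 4.82%. The count of 7 was 6 with the shared array placed in adrenal, 5 with it in lymph and 2 with all 6 columns. These fits, too, come without a share of all genes. Both lymph values lay above both adrenal values in 17 of the 64 genes, and below them in 10. Among all genes the shares were 16.3% and 17.0%.

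**Figure D2:**
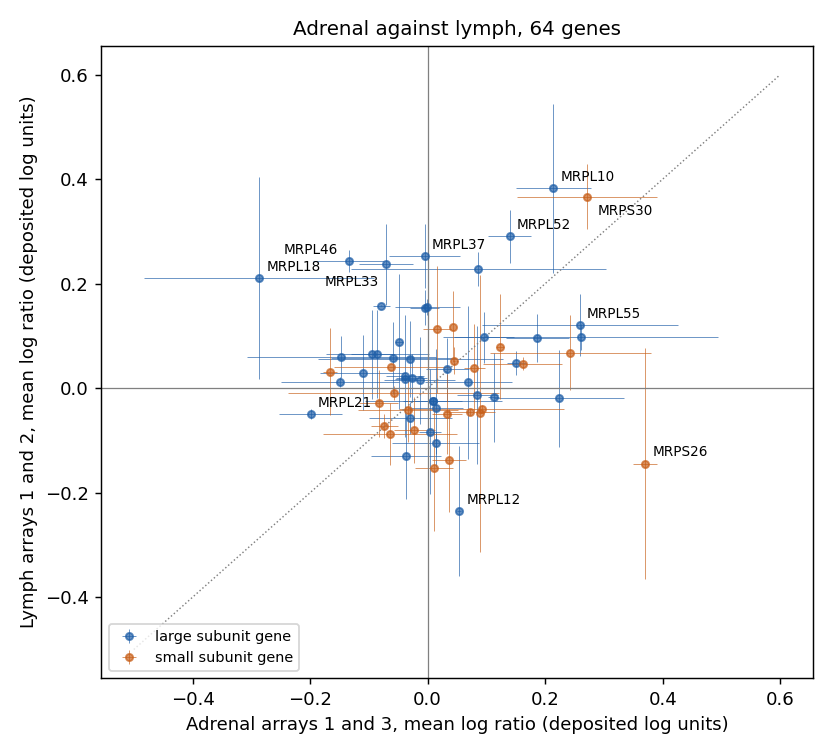
Mean log ratio of adrenal arrays 1 and 3 (x) against that of lymph arrays 1 and 2 (y) for 64 genes, in deposited log units; thin bars span both arrays of a tissue and the dotted line marks equal values. MRPS26 lies furthest to the right, with adrenal values of 0.39 and 0.35, and MRPL46, MRPL18 and MRPL33 lie left of 0 and above it.

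Over the 5 distinct arrays, MRPS30 had the highest mean. Its values were 0.39 and 0.15 in adrenal, 0.30 and 0.43 in lymph, then 0.058 for the shared array, with a mean of 0.27 ± 0.059 (limma SE, n = 5; unadjusted p = 0.00141, adjusted p = 0.299). Every array lay above 0, with the shared array lowest. MRPL52 stood at 0.10 and 0.18 in adrenal, 0.34 and 0.24 in lymph and 0.064 on the shared array, with a mean of 0.19 ± 0.048 (limma SE, n = 5; unadjusted p = 0.00388, adjusted p = 0.299). MRPL10 had a mean of 0.18 but an SE of 0.096, since it stood at -0.28 on the shared array. MRPL9, at 0.11 ± 0.045, and MRPL55, at 0.15 ± 0.061, followed by unadjusted limma p (0.0344 and 0.0357).

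The lowest means were those of MRPL37 at -0.096, MRPL12 at -0.087 and MRPL21 at -0.083. Below 0, the smallest p belonged to MRPL21, MRPS23 at -0.079, MRPL42 at -0.069 and MRPS12, a protein of the decoding site, at -0.055. Their unadjusted limma p ran from 0.139 to 0.178.

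In the average 0 of the 64 genes passed with limma after adjustment (0.0% of all genes). At an unadjusted p under 0.05 there were 5 above 0 and 0 below, or 7.81%, where all genes gave 7.14% above, 2.69% below and 9.83% in all. The count of 5 was 2 without adrenal 1 and 3 without adrenal 3. It was 2 when the spread was modelled with a trend. No share of all genes is given for these fits, so a shift of the whole fit cannot be told from one of these genes.

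On all 5 arrays 8 of the 64 genes lay above 0 and 0 lay below, where 7.05% and 3.96% of all genes did. Besides MRPS30 and MRPL52 they were MRPL2, MRPL32, MRPL43, MRPS6, MRPS18B and MRPS27. MRPL2, a protein near the site of peptide bond formation, ranged from 0.016 to 0.49, with the highest value on adrenal 3. MRPL32, whose precursor is cut by a protease of the inner membrane before assembly, ranged from 0.025 to 0.17, and MRPL43 from 0.0025 to 0.15. The small subunit genes ranged from 0.023 to 0.23 (MRPS6), from 0.028 to 0.078 (MRPS18B) and from 0.029 to 0.19 (MRPS27). MRPS18B had the narrowest range of the 64 genes.

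The subunits stood in opposite order in the 2 tissues. On adrenal 1 the median of the large subunit genes was -0.024 and that of the small subunit genes 0.036. On adrenal 3 they were 0.023 and 0.052, so the large subunit lay lower on both. On lymph 1 the large subunit median was 0.051 against 0.0049 for the small, and on lymph 2 it was 0.073 against -0.021, so the large subunit lay higher on both. On the shared array the medians were 0.013 and 0.020, and their difference of -0.0067 lay between those of the tissues.

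Large minus small was -0.045 ± 0.022 over the adrenal arrays (SD, n = 2) and 0.070 ± 0.034 over the lymph arrays (SD, n = 2). Over the 5 arrays it was 0.0088 ± 0.062 (SD), so its spread exceeded its size. These medians are a description with no test, because the pattern was known when the genes were chosen. With single features in place of gene means, large minus small in lymph was 0.032. Centring does not move a difference between subunits, but the small subunit median on lymph 1 was -0.0046 on the values as deposited.

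**Figure D3:**
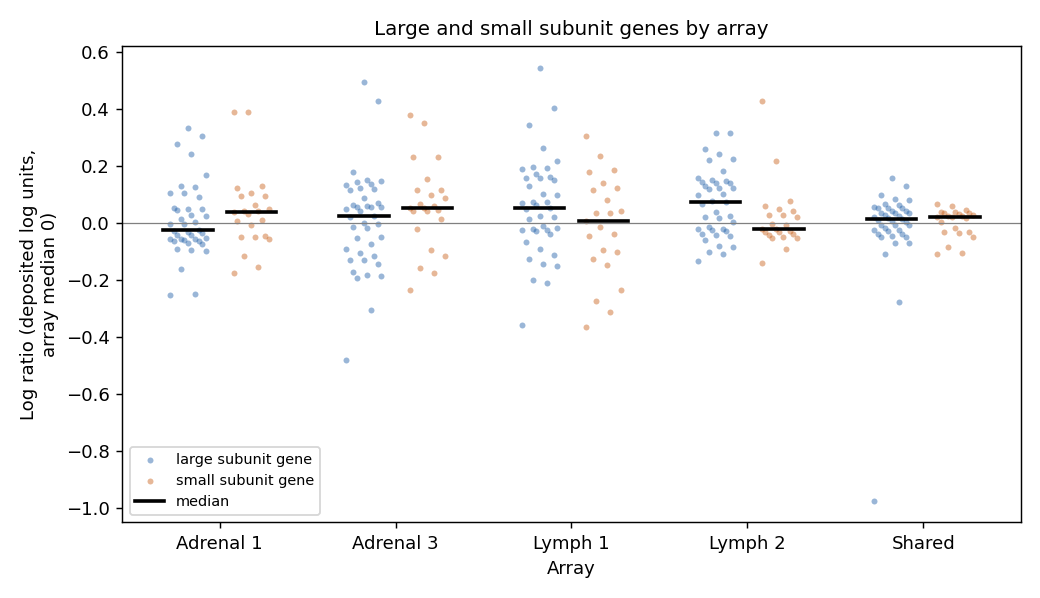
Log ratios of each large subunit gene (blue) and small subunit gene (orange) on the 5 arrays, in deposited log units with each array's median at 0; black bars are medians. The large subunit median is below the small one on adrenal 1 and 3 and above it on lymph 1 and 2, while the points of both subunits overlap on every array.

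Gene by gene, the difference between tissues was above 0 in 25 of 41 large subunit genes and in 9 of 23 small subunit genes. Its median was 0.055 in the large subunit and -0.040 in the small, against -0.00010 over all genes. Both lymph values exceeded both adrenal values in 14 large and 3 small subunit genes, and lay below them in 5 of each, beside the 16.3% and 17.0% of all genes given above. Of the genes at an unadjusted limma p under 0.05 in the difference, all 5 above 0 were of the large subunit, and the 2 below were MRPL12 and MRPS26. These counts restate the values behind the subunit medians and add no separate support. The genes share the same arrays and are not replicates of a tissue, and the counts were not tested.

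Within a subunit, genes with bacterial counterparts were set beside genes found only in mitochondria. In the large subunit, 25 genes listed with bacterial counterparts had a median lymph minus adrenal of 0.055 and 16 listed as found only in mitochondria had 0.066. The 25 include MRPL55, whose class was taken as listed. In the small subunit, 12 genes with bacterial counterparts had -0.062 and 8 found only in mitochondria had -0.050. On single arrays the large subunit classes lay furthest apart on lymph 2, at 0.098 and 0.019, followed by adrenal 3 at 0.048 and 0.011. They were close on adrenal 1, at -0.024 and -0.020, and on lymph 1, at 0.051 and 0.058. On the shared array their order was reversed, at 0.0056 and 0.037. In adrenal their medians were 0.0084 and -0.028. There 5 of 25 against 0 of 16 genes had an unadjusted limma p under 0.05, beside 7.36% of all genes. At that p in lymph, 2 of the 25 were above 0 and 1 below, against 3 above and 0 below of the 16. All genes gave 8.02% in lymph. The larger share thus fell to a different class in adrenal and in lymph. The difference between tissues had 3 above and 1 below, against 2 above and 0 below. The average had 2 above and 0 below, against 1 above and 0 below. MRPL55 was among the 5 in adrenal, and no value was recomputed with MRPL55 in the other class. Differences between the classes were not tested.

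The names MRPS30, MRPS18A and MRPS36 do not match the place of the protein. MRPS30 and MRPS18A belong to the large subunit, and MRPS36 was later assigned to the 2-oxoglutarate dehydrogenase complex. MRPS18A stood at -0.0077 and 0.040 in adrenal, 0.23 and -0.0089 in lymph and -0.086 on the shared array. MRPS36 stood at 0.12 and -0.24 in adrenal and within 0.2 of 0 on the other 3 arrays. With the first pair moved to the large subunit and MRPS36 left out, large minus small became -0.028 ± 0.018 in adrenal and 0.094 ± 0.0054 in lymph (SD over both arrays of a tissue).

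Several features were available for 21 of the 64 genes, 19 with 2 and 2 with 4. They are different spotted cDNAs of a gene on a slide, so they share its hybridisation and are not replicates of the tissue. In 56 of the 104 combinations of gene and array with at least 2 values, features of the same gene lay on both sides of 0. MRPL44, a protein with a ribonuclease-like fold, was the 1 gene whose features never did. MRPL14, with 4 features, had both signs on all 5 arrays, with feature means from -0.14 to 0.044. How often features of a gene lay on both sides of 0 in the whole table is not given. The 56 of 104 is therefore not shown to be particular to these genes.

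Over the 5 arrays the feature means of a gene lay a median of 0.057 apart. The closest pairs were those of MRPS23, at -0.081 and -0.076, and MRPL9, at 0.10 and 0.12. MRPL15, MRPL43, MRPL28, MRPS6, MRPL44, MRPS9 and MRPL38 had gaps from 0.023 to 0.049, MRPS35, MRPL20, MRPS5, MRPL17, MRPL54 and MRPS27 from 0.050 to 0.093, and MRPL23, MRPS26, MRPS31, MRPL4 and MRPL14 from 0.15 to 0.18. The widest gap was that of MRPL58, the release factor that frees stalled mitochondrial ribosomes, at 0.083 for one feature and -0.13 for the other. MRPL23, a protein at the exit tunnel, had features at 0.38 and 0.22 on adrenal 1 and at 0.090 and -0.35 on adrenal 3, and both above 0 on the lymph arrays.

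The intraclass correlation gives the share of variance that lies between genes and not between features of the same gene. On adrenal 1 it was 0.490 over the 21 genes, against 0.00555 over 3160 genes with several features in the whole table. On adrenal 3, lymph 1, lymph 2 and the shared array it was 0.0119, 0.137, -0.101 and -0.187 in these genes, and from -0.0212 to 0.0272 in the whole table. Features of the same gene were thus alike on adrenal 1, less so on lymph 1, and no more alike than features of different genes on the other 3 arrays. This is a description of few genes with no test.

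**Figure D4:**
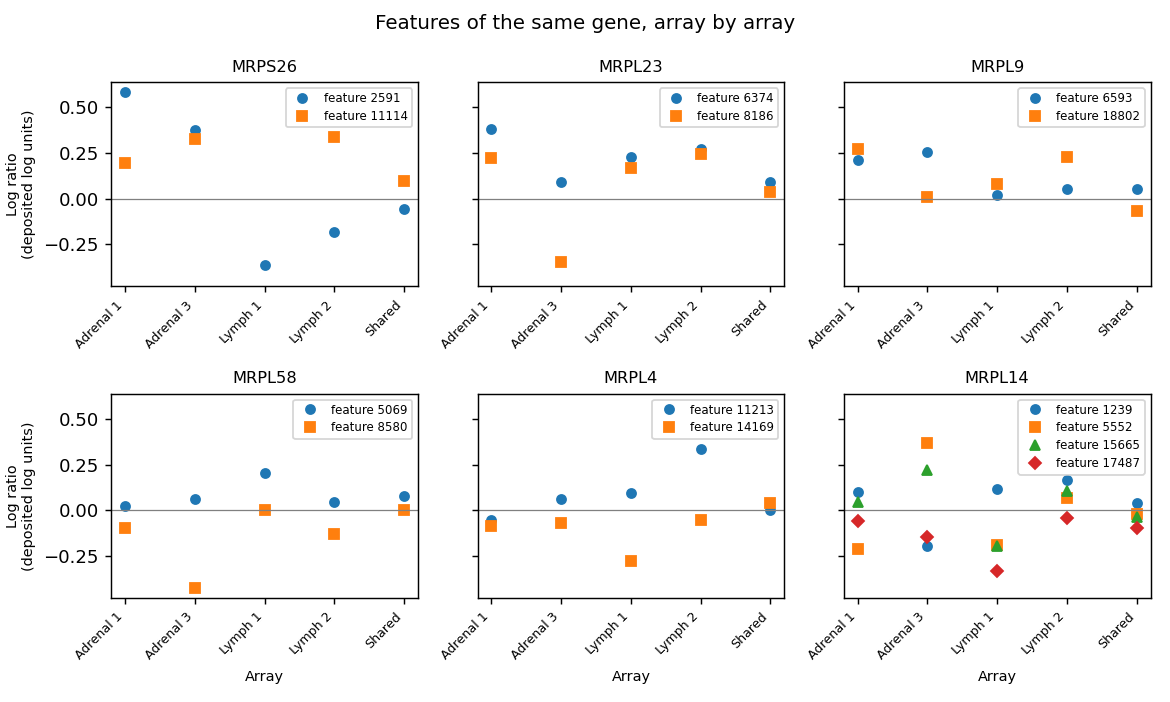
Log ratios (y, deposited log units with each array's median at 0) of the features of 6 genes on the 5 arrays (x); each symbol is a spotted cDNA, named by its feature number. The features of MRPS26 lie on opposite sides of 0 on lymph 2, at -0.18 and 0.34, and those of MRPL9 stay above 0 except for 1 value on the shared array.

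The shared array had the narrowest spread over all genes, with an SD of 0.0755. Over the 64 genes its SD was 0.138, and 0.0648 without MRPL37. The single MRPL37 feature, at -0.98, was the lowest of all genes tested on that array. On adrenal 1 and 3 it stood at -0.066 and 0.056, and on lymph 1 and 2 at 0.19 and 0.31. The other genes with the widest ranges over the arrays were MRPL18, from -0.48 to 0.40, MRPL10, from -0.28 to 0.54, and MRPS26, from -0.37 to 0.39.

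Across the 64 genes, Pearson's r was 0.352 between the adrenal arrays and 0.343 between the lymph arrays, where all genes gave 0.149 and 0.0705. It was 0.364 between adrenal 1 and lymph 2 and -0.144 between adrenal 3 and lymph 1, where all genes gave 0.177 and 0.0414. Over all 10 pairs of arrays it ran from -0.333 to 0.364, with 5 pairs above 0 and a mean of 0.066. All genes ran from -0.0013 to 0.177, with 9 pairs above 0 and a mean of 0.080. The lowest r of the 64 genes, between lymph 2 and the shared array, was -0.183 without MRPL37. Values of a gene on different arrays share the spotted cDNA, and these correlations are given as a description.

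The 21 genes not named so far by the rules were MRPL3, MRPL11, MRPL16, MRPL19, MRPL24, MRPL30, MRPL35, MRPL39, MRPL48, MRPL49, MRPL50, MRPL51, MRPL53, MRPS7, MRPS10, MRPS11, MRPS15, MRPS17, MRPS21, MRPS25 and MRPS33. Their means over 5 arrays lay between -0.054 and 0.065. MRPS21, which has a bacterial counterpart, gave the lowest single value of this group, -0.31 on lymph 1 against 0.22 on lymph 2. MRPS15 gave the highest, 0.23 on adrenal 3.

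Other genes of the pathway gave 0 calls with limma in any of the 4 fits. Ribosomal proteins that carry other names and an assembly partner (5 genes measured) had a median of 0.0020 over the 5 arrays. MALSU1, an assembly factor of the large subunit, stood at 0.035 and CHCHD1, a small subunit protein, at -0.029. Factors of mitochondrial translation (9 genes) had a median of 0.091, with 8 of the 9 above 0, where 53.3% of all genes were. At an unadjusted limma p under 0.05, 3 of the 9 stood above 0, where 7.14% of all genes did. MRRF, the recycling factor, stood at 0.34 and 0.16 in adrenal, 0.30 and 0.10 in lymph and -0.070 on the shared array. MTRES1 had a mean of 0.12 and lay above 0 on all 5 arrays.

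The mitochondrial aminoacyl-tRNA synthetases (15 genes) had a median of 0.0095, with 0 at an unadjusted limma p under 0.05 in the average, where 9.83% of all genes were. IARS2, which charges the isoleucine tRNA, stood at 0.11 and HARS2, which charges the histidine tRNA, at 0.13. Assembly and RNA processing factors (17 genes) had a median of -0.012, with 1 at an unadjusted limma p under 0.05. That gene was PNPT1, the polynucleotide phosphorylase of mitochondria, at 0.15 ± 0.049 (limma SE, n = 5; adjusted p = 0.392) and above 0 on all 5 arrays. METTL17 stood at -0.079 and below 0 on all 5.

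In the average of the 5 arrays, the 64 genes had a median of 0.0024, with 34 above 0, where all genes had 0.0049 and 53.3% above 0. The 49 cytosolic ribosomal protein genes, which serve translation outside mitochondria, had a median of 0.073 with 37 above 0. The 70 nuclear genes of oxidative phosphorylation, with assembly factors only where their symbols matched, had a median of 0.023 with 47 above 0. Apart from succinate dehydrogenase, their complexes take up the products of the mitochondrial ribosome. Differences between these lists were not tested.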

How the data were processed

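The deposited table held 1 log ratio per feature and array, a value of 2 channels whose base, scanner, background correction, normalisation and dye orientation are not given in the sources used here. Per the labels, both channels held the same tissue. Each array was centred on its median over all 19200 features, and the features of a gene were averaged. Gene symbols came from GEO's platform annotation (12630 features with 1 symbol). The gene numbers of 63 of the 64 genes were found in RefSeq, and the name of MRPS18B was kept from the annotation. There were 0 exact zeros.

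The functions lmFit and eBayes of limma 3.58.1 (R 4.3.3) were run on 8318 genes with at least 2 values per tissue. Adrenal, lymph and their difference used 4 arrays with 1 coefficient per tissue, and the average used 5 arrays. Tests were two-sided with Benjamini-Hochberg adjustment over all genes at 0.05. The fits were also run on simulated data, but the outcome is not given here and lends them no support. The number of arrays limits the precision, and the power behind the counts of 0 called genes is not stated. Python 3.11.15, numpy 2.4.6, pandas 2.3.3 and matplotlib 3.10.9 did the rest.

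The members and lists were chosen with earlier results of these data known. Named by rule were, per fit and direction, the 4 members with the smallest p, the 3 highest and 3 lowest means, members on 1 side of 0 on all arrays, the 4 widest ranges, members with several features, MRPS30, MRPS18A, MRPS18B and MRPS36, and 2 genes per pathway list. MRPS21 and MRPS15 were named after their values were seen. Alternatives were other centring, scaling, feature summaries, filters, spread estimates, array placement and arrays left out.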

Additional observations from a re-analysis of the deposited data

Results flagged for a closer look

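For 6 of the 64 genes, 1 of the 5 arrays stood apart from the others by Dixon's criterion, a gap to the next array that is large against the whole range. The same criterion marked 7.44% of all 8315 genes with a value on every array, beside 9.38% of the 64. Chance alone marks about 5% of such sets where all values have an equal spread. Here the SD over all genes ran from 0.0755 on the shared array to 0.177 on lymph 1, and the 5 arrays hold both tissues. MRPL2 stood at 0.49 on adrenal 3, MRPL49 at -0.31 on adrenal 3 and MRPS9 at -0.16 on adrenal 3. MRPS11 stood at -0.13 and MRPS27 at 0.19 on lymph 1, and MRPL44 at -0.10 on lymph 2. The value of MRPS9, a small subunit protein with a bacterial counterpart, is the mean of features at -0.38 and 0.060. That of MRPS27 is the mean of features at 0.46 and -0.092, and that of MRPL44 the mean of features at -0.20 and -0.0047.

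Large minus small subunit was below 0 on both adrenal arrays and above 0 on both lymph arrays, and its means in the tissues differ by 0.115. This difference was not tested.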

How the results depend on the processing

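The number of the 64 genes called with limma was 0 in adrenal, lymph, the difference and the average, and 0 under each of the 15 to 18 alternatives per comparison. Over these, the smallest adjusted limma p of any of the genes ran from 0.360 to 0.9997 for adrenal, from 0.265 to 0.827 for lymph, from 0.426 to 0.9998 between tissues, and from 0.197 to 0.696 over the 5 arrays. The lowest of the last range, 0.197, came from all 6 columns, which enter the shared column under both tissues. Scaled arrays, with that column counted once, gave 0.209. The alternatives that place the shared array in adrenal or lymph were chosen after seeing the data. In lymph, large minus small moved from 0.070 to 0.032 with single features in place of gene means, where genes with several features count more than once; the cause was not tested. Leaving out 1 array at a time gave -0.060 to -0.029 in adrenal, 0.046 to 0.094 in lymph and -0.013 to 0.026 over the 5 arrays. At an unadjusted p under 0.05, single features gave 11 of 88 in adrenal and 12 of 88 in lymph. With the shared array in lymph, 11 of the 64 genes had such a p in adrenal, and 0 were called after adjustment. Shares of all features or all genes in these fits are not given, so these counts have no background. Of 2709 values of the 43 named genes over all alternatives, 100 changed sign, 59 of them with 1 tissue array left out.

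The shared column carries number 2 in adrenal and number 3 in lymph, so no check of a pairing by replicate number was possible. With the replicate block on all 6 columns 0 of the genes were called in the difference, with 4 genes at an unadjusted p under 0.05; the 6 columns without the block gave 2. Signal over background was not used here.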
